A study of Homo sapiens with 21 samples.

Results

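RNA sequencing counts were compared between ISL1-/- and wild-type (WT) islet cells that had both received a vector carrying ISL1. The comparison uses 5 of the 21 libraries of the series, chosen by library name: 3 from ISL1-/- cells and 2 from WT cells. All were stem cell-derived islets of the human embryonic stem cell line H1, which are clusters of endocrine cells made by guiding stem cells through the stages of pancreas development. On day 11 the cells were transduced with a lentivirus holding ISL1, an internal ribosome entry site and the blue fluorescent protein BFP, and BFP-positive cells were sorted on day 18. The cells of both groups therefore carry the ISL1 vector, and the groups differ by genotype. The labels call the libraries biological replicates and do not say whether a genotype is a single clone, so genotype and line cannot be told apart. A second pair of groups, with 3 ISL1-/- and 2 WT libraries that received BFP alone, shares no library with the first and serves as its counterpart. It has the same genotypes, and the labels do not pair libraries by number, so its cultures need not be independent of the first.

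ISL1 is a LIM-homeodomain transcription factor of postmitotic pancreatic endocrine cells. It acts with LIM adaptor proteins at the control regions of hormone genes, including insulin, glucagon and somatostatin, and is needed for endocrine cells to mature. It is also expressed in motor neurons and in cardiac progenitors.

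The 5 libraries held from 49.3 to 56.8 M counts (1 M is 1e6 counts), and mitochondrial genes took from 1.52% to 1.93% of them. The correlation of log2 CPM (counts per 1e6 of the scaled library size) across genes was 0.984 to 0.988 among the ISL1-/- libraries and 0.987 between the WT libraries. Between genotypes it was 0.958 to 0.968. Libraries of the 21 that stand apart by mitochondrial share are PAX6-/- with ISL1 replicate 3 (3.16%) and PDX1-/- with ISL1 replicate 4 (3.84%). They are in neither group but enter the estimate of the spread, so the main count is also given without them.

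The targeted gene was examined first. ISL1 (ENSG00000016082.15, GRCh38 chromosome 5, 51383448 to 51394730, plus strand, protein coding) had 71.6, 85.1 and 96.8 CPM in the ISL1-/- libraries and 361 and 337.5 CPM in the WT libraries. The groups did not overlap, and every ISL1-/- library was far below both WT libraries. The log2 fold change was -2.05 ± 0.39 (SE; edgeR quasi-likelihood test, adjusted p = 0.00643), a call that was lost without WT with ISL1 replicate 1 (adjusted p = 0.0508). With the BFP vector ISL1 was 73.7, 74.6 and 82.4 CPM in ISL1-/- and 306 and 519 CPM in WT. ISL1 counts therefore follow the genotype label and do not separate the vector labels, so the vector is stated here from the labels only.

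Short stretches of DNA before the transcription starts are shown for SST and IAPP, which encode peptides of endocrine cells and whose counts were lower in ISL1-/- (values below). The letters TAAT are the core that homeodomain proteins such as ISL1 bind. Each run is the 250 bases before a start in RefSeq on GRCh38.p14, 5′ to 3′ on the gene's strand, with TAAT or its reverse complement ATTA in capitals. SST lies on the minus strand (chr3:187670395-187670644). IAPP lies on the plus strand and has 2 starts, the first preceded by chr12:21354709-21354958 and the second by chr12:21372652-21372901.
SST: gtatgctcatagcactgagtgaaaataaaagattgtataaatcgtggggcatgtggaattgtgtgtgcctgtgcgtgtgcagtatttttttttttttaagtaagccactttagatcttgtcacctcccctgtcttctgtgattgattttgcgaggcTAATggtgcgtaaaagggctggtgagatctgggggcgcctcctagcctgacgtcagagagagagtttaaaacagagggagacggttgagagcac
IAPP, first start: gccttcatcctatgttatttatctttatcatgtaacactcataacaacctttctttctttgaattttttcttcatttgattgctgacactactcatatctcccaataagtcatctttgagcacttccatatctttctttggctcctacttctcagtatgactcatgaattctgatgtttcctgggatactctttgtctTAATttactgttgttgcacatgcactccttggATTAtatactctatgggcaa
IAPP, second start: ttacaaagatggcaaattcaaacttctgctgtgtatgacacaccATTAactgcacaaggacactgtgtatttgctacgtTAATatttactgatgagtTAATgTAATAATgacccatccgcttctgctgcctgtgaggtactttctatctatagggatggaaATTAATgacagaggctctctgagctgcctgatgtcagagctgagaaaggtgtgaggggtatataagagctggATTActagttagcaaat
The SST stretch held 1 match, and that match lay within the longer motif CTAATG. The stretches of IAPP held 2 and 8 matches, some of them overlapping, and none within CTAATG. The peptide gene PYY has 2 starts on the minus strand of chromosome 17, and neither stretch of 250 bases held a match. Of 35116 promoters of this length, 47.4% held TAAT on either strand and 5.57% held CTAATG. The matches describe letters, and the counts per gene do not tell which start was used.

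Across the transcriptome, 962 of 25884 genes tested (3.72%) differed between the genotypes with the ISL1 vector at an adjusted p under 0.05. Of these, 265 (1.02% of genes tested) were higher in ISL1-/- and 697 (2.69%) were lower. The median log2 fold change was 1.75 for the higher genes and -1.77 for the lower genes, beside 0.03 for all genes tested, and 409 genes changed over 4-fold, 111 of them higher and 298 lower. The libraries of the groups did not overlap for any of the 962 genes, as they did not for 50.6% of all genes tested. Protein-coding genes made up 798 of the 962.

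The number of calls depended on the libraries that set the spread. Without PAX6-/- with ISL1 replicate 3 and PDX1-/- with ISL1 replicate 4, 5308 of 27284 genes tested (19.5%) were called, which include all 962. Of these, 2244 (8.22% of genes tested) were higher in ISL1-/- and 3064 (11.2%) lower, so that 42.3% of the calls were higher in place of 27.5%. With the 5 libraries alone, 5649 genes of 22967 (24.6%) were called, including 945 of the 962, and DESeq2 on all 21 libraries called 1936 (7.48%). The counts for gene lists are therefore also given for the fit without both libraries, called here the reduced fit, and are to be read against its 19.5%. Of 63 named genes that were called, 15 kept their call in each fit without 1 library of the comparison: CHCHD2, ERO1B, GPR119, LCP1, LINC02864, LMO2, LOXL4, POSTN, SLC2A3, SLC30A8, TF, TMEM236, TSPYL5, UNC5B and ZNF585A. The other named calls were lost in at least 1 of these fits, and 21 of them in all 5.

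**Figure D1:**
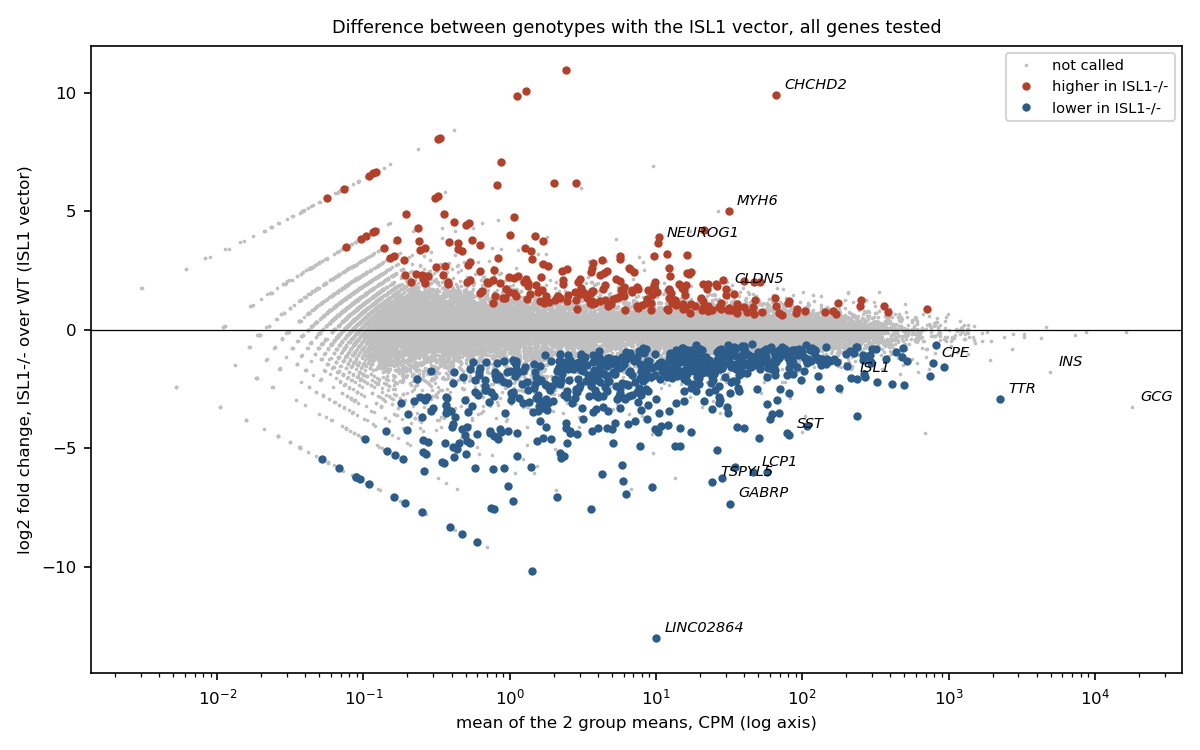
Log2 fold change of ISL1-/- over WT with the ISL1 vector (vertical axis) against the mean of both group means in CPM (log horizontal axis), 1 point per gene tested. Red and blue points are the 265 genes called higher and the 697 called lower; CHCHD2 is at 9.90 and TTR at -2.94, while the abundant hormone genes GCG and INS lie below 0 and are not called.

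Among the 5 islet hormone genes, SST fell and the other 4 did not pass the test. The libraries of all 5 were lower in ISL1-/- without overlap, beside 50.6% of all genes tested without overlap, counting both directions. The median log2 fold change of the 5 was -3.26, and in the reduced fit all 5 fell. SST, the inhibitory hormone of delta cells, was 4.15, 5.82 and 11.5 CPM in ISL1-/- and 159 and 149 CPM in WT. All 3 ISL1-/- libraries were far below both WT libraries. The log2 fold change was -4.42 ± 0.88 (SE, adjusted p = 0.00855), and it stood between -4.95 and -4.15 when 1 library was left out. The call was lost without ISL1-/- with ISL1 replicate 1 or 2, where the adjusted p reached 0.0528, and DESeq2 gave SST no adjusted p.

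GCG, which encodes glucagon, the hormone of alpha cells, was the most abundant hormone gene. It had 2197, 2689 and 5362 CPM in ISL1-/- (3416 ± 1703, SD, n = 3) and 34370 and 31160 CPM in WT (32760 ± 2266, SD, n = 2). Replicate 3 was the highest of the ISL1-/- libraries and still far below WT. The log2 fold change was -3.26 ± 0.93 (SE) with an adjusted p of 0.0585, just short of the threshold. The adjusted p was 8.21e-05 without both libraries of high mitochondrial share and 2.06e-04 with the 5 libraries alone. It was 0.0878 with upper quartile scaling and 0.111 to 0.217 in the fits without 1 library of the comparison, and DESeq2 gave none.

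INS, which encodes insulin, had 1894, 2352 and 2472 CPM in ISL1-/- and 8382 and 6918 CPM in WT. Its log2 fold change of -1.77 ± 0.95 (SE) did not pass the test (adjusted p = 0.37), nor did it without any single library of the comparison. With the 5 libraries alone the fold change was -1.78 with an adjusted p of 6.5e-05. GHRL, which encodes ghrelin, had 35.8, 37.3 and 55.0 CPM in ISL1-/- and 126 and 129 CPM in WT (log2 fold change -1.58 ± 0.58, adjusted p = 0.149). PPY, which encodes pancreatic polypeptide, was scarce, with at most 0.576 CPM in ISL1-/- and 1.79 and 3.92 CPM in WT (-3.34 ± 0.94, adjusted p = 0.0575).

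The other peptide hormones gave 1 call among 12 genes, with a median of -0.49 (4 lower and 1 higher in the reduced fit). PYY, a gut and islet peptide of the pancreatic polypeptide family, had 2.47, 2.99 and 6.86 CPM in ISL1-/- and 92.2 and 101 CPM in WT. The highest ISL1-/- library was again replicate 3, as for GCG and SST. The log2 fold change was -4.56 ± 0.92 (SE, adjusted p = 0.00978), and the call was lost without ISL1-/- with ISL1 replicate 1 or 2 (adjusted p up to 0.0594). GAST, which encodes gastrin, averaged 51.6 CPM in ISL1-/- and 316 CPM in WT without passing the test (-2.61 ± 0.90, adjusted p = 0.125). These are RNA levels of sorted bulk cells, in which fewer cells of a type and less RNA per cell cannot be told apart.

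**Figure D2:**
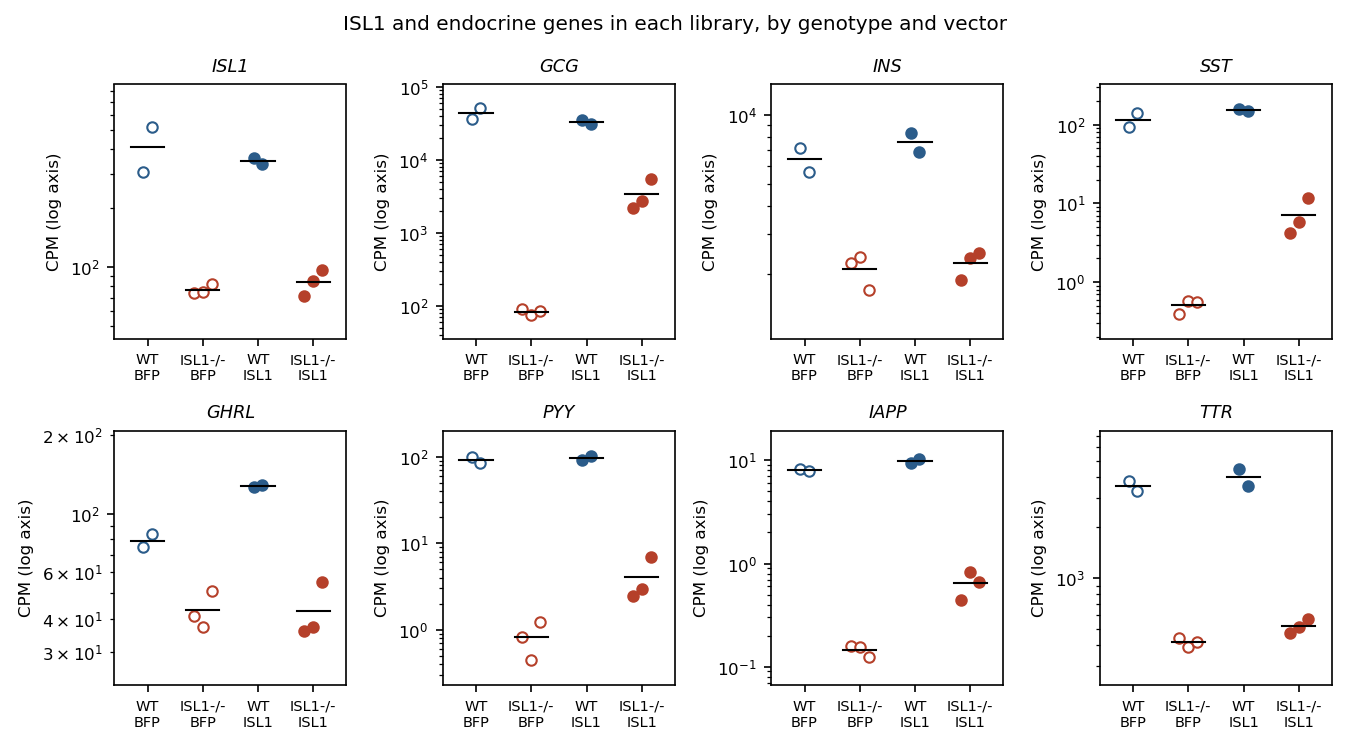
CPM (log axis) of ISL1 and 7 peptide or secreted-protein genes in each library of the 4 groups; blue is WT, red is ISL1-/-, open points are the BFP vector, filled points the ISL1 vector, and bars are means. In every panel the ISL1-/- libraries lie below the WT libraries with the same vector; GCG in ISL1-/- averages 83.5 CPM with BFP and 3416 CPM with ISL1.

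Beta cell genes gave the most calls of the endocrine lists. Of 18 genes, 7 fell, 1 rose and 10 did not pass the test, and the median was -0.36. In the reduced fit 8 fell and 3 rose. IAPP, the amyloid peptide secreted with insulin, was 0.442, 0.831 and 0.666 CPM in ISL1-/- and 9.51 and 10.3 CPM in WT. It was low in absolute level even in WT. G6PC2, the islet glucose-6-phosphatase, was 7.69, 11.9 and 9.38 CPM in ISL1-/- and 133 and 94.4 CPM in WT. Both fell, with log2 fold changes of -3.93 and -3.56 (adjusted p = 0.0178 and 0.0282), and both calls were lost in each fit without 1 library of the comparison.

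SLC30A8 and ERO1B fell by less, and their calls were kept in each fit without 1 library of the comparison. SLC30A8, the zinc transporter of insulin granules, was 86.7, 116 and 146 CPM in ISL1-/- and 627 and 437.5 CPM in WT. ERO1B, an oxidase of the endoplasmic reticulum that helps proinsulin fold, was 272, 299 and 350.1 CPM in ISL1-/- and 1329 and 1063 CPM in WT. Neither gene overlapped between the groups. The log2 fold changes were -2.20 ± 0.26 (adjusted p = 2.24e-04) and -1.96 ± 0.28 (adjusted p = 9.25e-04). ENTPD3, a surface ectonucleotidase of beta cells, ADCYAP1, a neuropeptide gene, and PLXDC2 also fell, with log2 fold changes of -2.85, -1.32 and -1.10. The calls of ADCYAP1 and PLXDC2 were lost in each fit without 1 library of the comparison. That of ENTPD3 was lost without ISL1-/- replicate 1 or 3 or WT replicate 1. ADCYAP1 also lost its call with upper quartile scaling and with no filter on low counts. With BFP, ADCYAP1 had the opposite sign, averaging 2.36 CPM in ISL1-/- and 1.44 CPM in WT (0.71, not called).

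The transcription factors of the beta list gave a rise and no fall. SIX3, a homeobox gene of mature beta cells, rose from 0.189 and 0.438 CPM in WT to 2.95, 2.03 and 2.56 CPM in ISL1-/- (2.99 ± 0.50, adjusted p = 0.0027). NKX6-1 and MNX1, factors of beta cell identity, averaged 98.6 and 150.4 CPM in ISL1-/- and 44.3 and 72.3 CPM in WT. Their libraries did not overlap, and their log2 fold changes of 1.15 and 1.06 missed the threshold (adjusted p = 0.105 and 0.103). PDX1, the master regulator of pancreas and beta cells, was 105, 95.6 and 114 CPM in ISL1-/- and 102 and 83.6 CPM in WT, which overlap (0.18 ± 0.23, adjusted p = 0.796). MAFA, a late beta cell factor, was near 1 CPM in both groups.

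Of 14 alpha cell genes, 2 fell, none rose and 12 did not pass the test, with a median of -0.62. The reduced fit gave 9 falls and 1 rise. TTR, which encodes transthyretin and is made by alpha cells and liver, was 473, 509.9 and 575 CPM in ISL1-/- and 4422 and 3541 CPM in WT (-2.94 ± 0.68, adjusted p = 0.021). LOXL4, a lysyl oxidase enriched in alpha cells, was 7.50, 7.36 and 9.56 CPM in ISL1-/- and 124 and 99.96 CPM in WT. Its groups were far apart, and the fall of 3.78 (SE 0.55, adjusted p = 0.00104) was called in every fit without 1 library, whereas that of TTR was called in none. DPP4, a peptidase of alpha cells, averaged 277 and 957 CPM (-1.79 ± 0.57, adjusted p = 0.0929). IRX2, an Iroquois homeobox gene, overlapped between the groups.

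Delta cell genes had the lowest median of the cell type lists of the islet, at -1.42 over 8 genes, of which 2 fell and 6 did not pass the test (5 fell in the reduced fit). HHEX, the factor that maintains delta cells, was 34.6, 34.1 and 26.1 CPM in ISL1-/- and 88.5 and 105 CPM in WT (-1.61 ± 0.31, adjusted p = 0.00643). UNC5B, a netrin receptor, was 8.15, 8.13 and 8.23 CPM in ISL1-/- and 26.3 and 27.4 CPM in WT (-1.71 ± 0.28, adjusted p = 0.00204). The values of UNC5B were nearly equal within each group. The delta cell list does not hold SST itself, which is counted among the hormones. In the epsilon cell list, which has 3 genes, PHGR1 fell by 1.68, and in the reduced fit 1 gene fell and 1 rose.

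Enterochromaffin cell genes, which mark serotonin-making cells that arise beside beta cells in these cultures, had a positive median of 0.87 over 9 genes. Of these, 2 rose and none fell, and the libraries of 7 were higher in ISL1-/- without overlap. Over all genes tested, 50.6% were without overlap, counting both directions. The reduced fit gave 7 rises and 1 fall. CBLN1, a synaptic protein gene on this list, was 33.6, 40.1 and 48.5 CPM in ISL1-/- and 12.5 and 8.88 CPM in WT (1.93 ± 0.33, adjusted p = 0.00312). DDC, which encodes the decarboxylase that makes serotonin and dopamine, was 302, 335.5 and 352 CPM in ISL1-/- and 168 and 164 CPM in WT (0.99 ± 0.22, adjusted p = 0.0152). The call of DDC was lost without ISL1-/- replicate 2 or 3 and when either WT library was left out. It was also lost with upper quartile scaling and with no filter on low counts. TPH1, the rate-limiting enzyme of serotonin synthesis, averaged 67.9 CPM in ISL1-/- and 23.8 CPM in WT without passing the test (1.51 ± 0.53, adjusted p = 0.128), nor did SLC18A1, a vesicular monoamine transporter (1.78 ± 0.49, adjusted p = 0.0526).

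Genes of the general endocrine program were mostly not called. Of 18 endocrine transcription factors, ETV1 fell and 17 did not pass the test, with a median of 0.06, and the count was the same in the reduced fit. ETV1, an ETS factor, was 44.6, 51.2 and 45.7 CPM in ISL1-/- and 123 and 114 CPM in WT (-1.33 ± 0.25, adjusted p = 0.00537). PAX6, a paired-homeodomain factor of all islet cells, was 83.9, 86.7 and 144 CPM in ISL1-/- and 166 and 145 CPM in WT (-0.57 ± 0.45, adjusted p = 0.598). NEUROD1, INSM1, RFX6 and FOXA1 overlapped between the groups.

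Of 10 genes of endocrine progenitors, SOX4, a factor that promotes endocrine commitment, rose and the others did not pass the test (3 rose and 1 fell in the reduced fit). SOX4 had 517, 466 and 457 CPM in ISL1-/- and averaged 288 CPM in WT (0.74 ± 0.19, adjusted p = 0.037). The call was lost in each fit without 1 library of the comparison, with upper quartile scaling and with no filter on low counts. NEUROG3, the factor that starts the endocrine program, averaged 275 CPM ± 25.3 (SD, n = 3) in ISL1-/- and 115 ± 18.3 (SD, n = 2) in WT, and missed the threshold (1.25 ± 0.36, adjusted p = 0.0597). In the list of pancreatic progenitor and duct genes, CA2, a carbonic anhydrase, fell by 1.20 and the other 13 were not called, while the reduced fit gave 2 falls and 2 rises.

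Among 16 genes for ISL1, other LIM factors and their adaptors, only ISL1 and LMO2 were called, and the median was 0.04. In the reduced fit 5 genes of this list fell and 2 rose. LMO2, a LIM-only protein without a DNA-binding domain, was 4.31, 5.87 and 8.34 CPM in ISL1-/- and 54.7 and 41.8 CPM in WT. Its groups did not overlap, and it fell by 2.97 (SE 0.45, adjusted p = 0.00118), a call kept in every fit without 1 library. LDB1, the adaptor that bridges LIM proteins, averaged 27.3 CPM in ISL1-/- and 19.8 CPM in WT (0.46 ± 0.20, adjusted p = 0.227). LHX1 and LHX4, other LIM-homeodomain factors, gave -2.19 and -1.35 and missed the threshold (adjusted p = 0.076 and 0.051).

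The secretory machinery was called in a few genes. Of 11 granin and prohormone processing genes, CPE and SCG2 fell and 9 did not pass the test, with a median of -0.74 (7 lower and 1 higher in the reduced fit). CPE, the carboxypeptidase that trims prohormones, was 376, 442 and 466 CPM in ISL1-/- and 1187 and 1091 CPM in WT (-1.41 ± 0.29, adjusted p = 0.0108). CHGA, the granin common to endocrine cells, averaged 15800 and 17000 CPM and overlapped. Of 12 genes of glucose sensing and of potassium and calcium channels, SLC2A3, a high-affinity glucose transporter, fell (-1.98 ± 0.22, adjusted p = 9.71e-05), and the reduced fit gave 2 falls and 1 rise. ABCC8 and KCNJ11, the subunits of the ATP-sensitive potassium channel, were not called. In the exocytosis list of 14 genes, DOC2B, a calcium-sensing vesicle protein, rose by 1.71, the single call in the reduced fit too. That call was lost in each fit without 1 library of the comparison.

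Of 13 receptors of islet cells, 3 fell and none rose. GPR119, a lipid receptor that raises cyclic AMP, was 36.3, 41.4 and 41.99 CPM in ISL1-/- and 259 and 193 CPM in WT (-2.50 ± 0.27, adjusted p = 6.45e-05). It was among the 15 of 63 called named genes that were also called in each fit without 1 library. FFAR4, a receptor for long-chain fatty acids, and CCKBR, the gastrin receptor, fell as well, at -2.50 and -0.96. The list's median was -0.33, and 5 fell and 1 rose in the reduced fit.

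**Figure D3:**
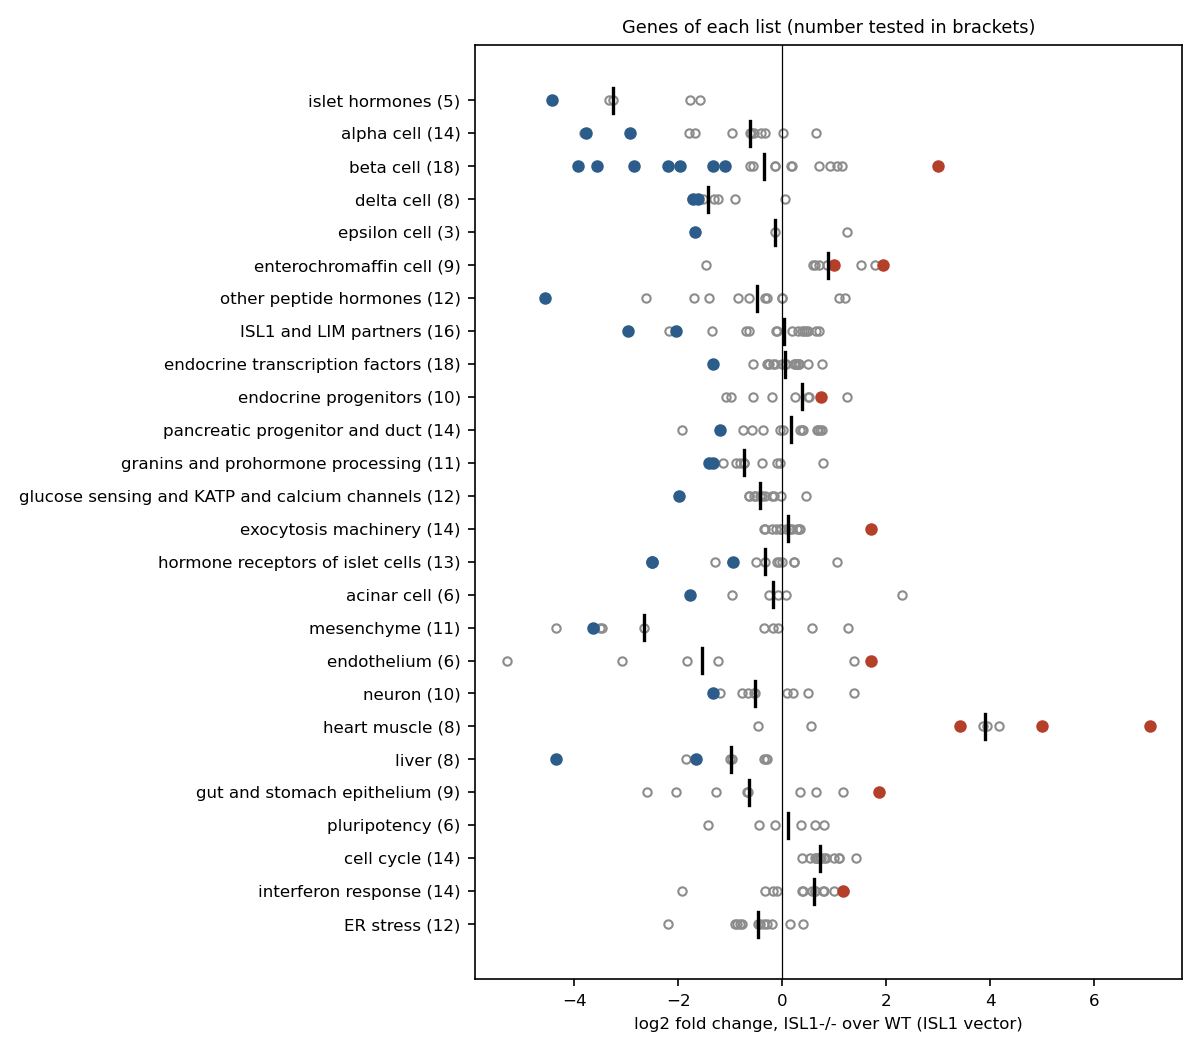
Log2 fold change of ISL1-/- over WT with the ISL1 vector for every tested gene of the 26 lists; red and blue points are called higher and lower, open grey points are not called, and black bars are list medians. Calls are spread over most lists, with medians from -3.26 (islet hormones) to 3.89 (heart muscle).

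The largest rise among genes at 10 CPM or more was CHCHD2, which encodes a mitochondrial protein that regulates respiration. It had 131, 137 and 129 CPM in ISL1-/- and 0.168 and 0.104 CPM in WT (9.90 ± 0.92, adjusted p = 1.86e-05). With the BFP vector it had 132 to 147 CPM in ISL1-/- and 0.154 and 0.212 CPM in WT. In the PAX6-/- and PDX1-/- libraries of the series it was at most 0.919 CPM, so the level was high in the ISL1-/- libraries and near 0 in all 15 others. Here too the genotype and the line cannot be told apart.

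Falls with the same distribution over the series were those of TSPYL5 and ZNF585A. TSPYL5, a nucleosome assembly family member, was 0.737, 0.565 and 0.342 CPM in ISL1-/- and 53.1 and 42.7 CPM in WT (-6.44 ± 0.75, adjusted p = 1.50e-04). ZNF585A, a zinc finger gene, was 0.240, 0.0499 and 0.360 CPM in ISL1-/- and 12.4 and 10.4 CPM in WT (-5.72 ± 0.52, adjusted p = 1.84e-05). Over the series the 6 ISL1-/- libraries had at most 0.737 and 0.360 CPM of these genes, and the other 15 had at least 9.90 and 4.51 CPM. TMEM236, a membrane protein gene, fell too (-5.06 ± 0.56, adjusted p = 8.66e-05) but was also low in PAX6-/- libraries, down to 0.315 CPM.

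LINC02864, a long noncoding RNA, had no count in the 3 ISL1-/- libraries and 18.1 and 21.9 CPM in WT. Set against 3 counts per library, which is what a count of 0 allows, it was at least 377-fold lower in ISL1-/- (adjusted p = 0.00826). It was at most 0.104 CPM in the PAX6-/- and PDX1-/- libraries as well, apart from PDX1-/- with ISL1 replicate 4, which had 24.96 CPM.

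LCP1, an actin-bundling protein best known from blood cells, was 1.66, 1.58 and 0.972 CPM in ISL1-/- and 89.2 and 93.4 CPM in WT (-6.02 ± 0.90, adjusted p = 0.00115). AREG, which encodes the growth factor amphiregulin, and ANXA1, a phospholipid-binding protein, averaged 1.23 and 0.725 CPM in ISL1-/- and 68.0 and 55.5 CPM in WT. Both fell, with log2 fold changes of -5.79 and -6.25 (adjusted p = 0.00957 and 0.0240). GABRP, a subunit of the GABA receptor found outside the nervous system, fell by 7.33 and just passed the test (adjusted p = 0.0498), a call lost in each fit without 1 library.

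The largest rises also included NEUROG1 and NGFR. NEUROG1, a proneural factor, was 18.9, 15.4 and 23.1 CPM in ISL1-/- and 1.26 and 1.77 CPM in WT (3.66 ± 0.80, adjusted p = 0.0158). NGFR, the low-affinity neurotrophin receptor, was 15.9, 13.2 and 29.7 CPM in ISL1-/- and 1.28 and 1.31 CPM in WT (3.91 ± 0.88, adjusted p = 0.0182). Both were also called with the BFP vector. With the ISL1 vector both calls were lost when either WT library was left out, and that of NGFR also without ISL1-/- replicate 3. The receptor kinase ALK, the ephrin receptor EPHA5, the orphan receptor GPR6 and the noncoding RNA MIAT rose by 3.12, 2.55, 3.19 and 3.17, and SCUBE1, CHST6 and STRIP2 by 2.97, 2.62 and 2.61. None of the calls of ALK, EPHA5, SCUBE1 and CHST6 was kept in any fit without 1 library. The list of 10 neuron genes gave 1 call, a fall of NEFL, and a median of -0.53 (4 lower and 1 higher in the reduced fit).

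**Figure D4:**
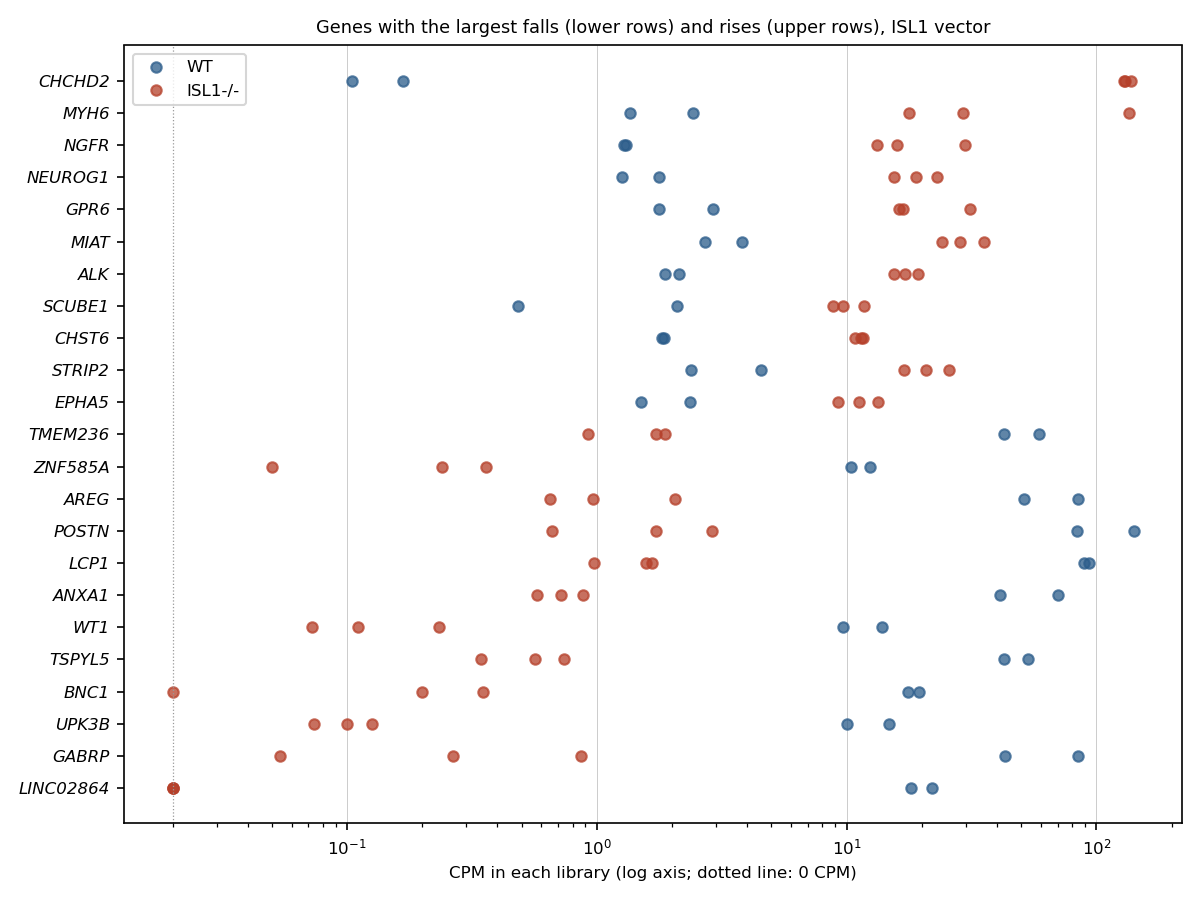
CPM of 23 of the genes with the largest rises (upper rows) and falls (lower rows) in the 3 ISL1-/- libraries (red) and 2 WT libraries (blue) with the ISL1 vector, on a log axis with 0 CPM at the dotted line. The groups do not overlap in any row; MYH6 spreads from 17.8 to 135 CPM within ISL1-/-, while CHCHD2 stays between 129 and 137 CPM.

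Genes of other cell types moved between the groups as well. Of 11 mesenchyme genes, SPARC, a matrix glycoprotein, fell and 10 did not pass the test, with a median of -2.66. The reduced fit gave 6 falls and 2 rises. SPARC had 30.4, 32.5 and 41.4 CPM in ISL1-/- and 341 and 532 CPM in WT (-3.65 ± 0.74, adjusted p = 0.00957). The summed level of the list was 341 to 424 CPM in ISL1-/- and 2080 to 2550 CPM in WT. No gene of the list was under 1 CPM in all 5 libraries. The collagen genes COL3A1 and COL1A1 averaged 64.3 and 15.6 CPM in ISL1-/- and 1312 and 193 CPM in WT, and missed the threshold (adjusted p = 0.0548 and 0.0573).

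Among the largest falls were POSTN, UPK3B, WT1 and BNC1. POSTN, a matrix protein of fibroblasts, was 0.664, 2.89 and 1.73 CPM in ISL1-/- and 83.5 and 141 CPM in WT (-5.99 ± 1.06, adjusted p = 0.00382). UPK3B, WT1 and BNC1, which are expressed in mesothelium, were at most 0.35 CPM in ISL1-/- and from 9.70 to 19.6 CPM in WT. Their log2 fold changes were -6.92, -6.37 and -6.65 (adjusted p = 0.0319, 0.0234 and 0.0384), and none of these calls was kept in any fit without 1 library. In WT with BFP, POSTN was 26.8 CPM in replicate 1 and 6.20 CPM in replicate 3, UPK3B 4.35 and 0.816 CPM, and the summed mesenchyme level ranged from 484 to 1730 CPM. The level of such genes thus differed between WT libraries given the same vector, and their part in the other differences was not tested.

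Heart muscle genes gave rises. Of 8 genes, 3 rose, none fell and 5 did not pass the test, with a median of 3.89, and the summed level was 42.4 to 269 CPM in ISL1-/- and 17.3 to 21.3 CPM in WT. In the reduced fit 5 rose. With BFP none of the 8 was called, at a median of 2.64, with a summed level of 83.9 to 360 CPM in ISL1-/- and 18.7 to 38.5 CPM in WT. MYH6, the atrial myosin heavy chain, was 17.8, 29.2 and 135 CPM in ISL1-/- and 2.44 and 1.36 CPM in WT (5.00 ± 1.23, adjusted p = 0.0292). Replicate 3 held most of that signal: without it the log2 fold change was 3.63 and the call was lost, as it was without either WT library. NKX2-5, a cardiac homeobox factor, was 0.479, 0.848 and 3.85 CPM in ISL1-/-, and the WT libraries had 0.0210 and 0 CPM, which makes it at least 27.5-fold higher when WT is set at 3 counts per library (adjusted p = 0.0397). Without replicate 3 that bound was 10.6-fold, and the call of NKX2-5 was lost without replicate 2, replicate 3 or either WT library, and with voom. WT with ISL1 has no replicate 3, so that ISL1-/- library has no same-numbered WT library. ACTN2, another gene of the list, was also highest in replicate 3 of ISL1-/-, at 23.1 CPM with ISL1 and 23.4 CPM with BFP. In WT with BFP it was 0.725 CPM in replicate 1 and 3.23 CPM in replicate 3. What sets replicate 3 apart was not tested. MYH7, the ventricular myosin heavy chain, was also called higher, although it stayed at or under 1.08 CPM in every library. Its call was lost without ISL1-/- replicate 2 or 3 and when either WT library was left out. TNNT2 and MYL7, a troponin and a myosin light chain, averaged 3.40 and 32.3 CPM in ISL1-/- and 0.220 and 1.79 CPM in WT without passing the test.

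Of 8 liver genes, TF and ALB fell and 6 did not pass the test, with a median of -0.99 and a summed level of 6120 to 8300 CPM in ISL1-/- and 9460 to 11300 CPM in WT (5 lower in the reduced fit). TF, which encodes the iron carrier transferrin, had the smallest adjusted p of the named genes. It was 8.79, 6.65 and 6.63 CPM in ISL1-/- and 147 and 155 CPM in WT (-4.36 ± 0.30, adjusted p = 8.62e-07). In the 15 libraries of the series from other genotypes it was at least 76.3 CPM. AFP and FGB, other liver secretory genes, averaged 2128 and 3784 CPM in ISL1-/- and 2636 and 4835 CPM in WT.

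No gene of the cell cycle list was called in the edgeR fit of all 21 libraries, although 5 of 14 had an unadjusted p under 0.05. The median was 0.73, and 13 genes were higher in ISL1-/- without overlap. Over all genes tested, 50.6% were without overlap, counting both directions. The same list gave 1 call with DESeq2, 6 in the reduced fit and 13 with the 5 libraries alone, all higher in ISL1-/-. The summed level was 1360 to 1750 CPM in ISL1-/- and 793 to 1010 CPM in WT. MKI67, a marker of dividing cells, averaged 78.8 and 39.7 CPM (0.99 ± 0.46, adjusted p = 0.283), and MCM5, a replication helicase subunit, 112 and 52.2 CPM (1.10 ± 0.32, adjusted p = 0.0662). Of 14 interferon response genes, OAS1 rose by 1.17 and the median was 0.60 (6 higher and 1 lower in the reduced fit). The lists of pluripotency (6 genes tested) and ER stress (12 genes) gave no call in the edgeR fit of all 21 libraries, at medians of 0.11 and -0.46. They had 2 and 4 genes at an unadjusted p under 0.05, and 0 and 1 calls by DESeq2. The reduced fit gave 2 rises and 1 fall among the pluripotency genes and 7 falls among the ER stress genes.

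Of 6 endothelium genes, CLDN5, a tight junction gene, rose by 1.71 and the others did not pass the test. The median of that list was -1.54, 4 genes were lower and 1 higher in ISL1-/- without overlap, and the reduced fit gave 2 falls and 1 rise. The endothelial genes PECAM1 and CDH5 were at or under 1.13 CPM on average. Of 9 genes of gut and stomach epithelium, SOX2, a factor of stomach epithelium and stem cells, rose by 1.85 and 8 did not pass the test. Here the median was -0.65, with 5 genes lower and 4 higher without overlap, and the reduced fit gave 3 falls and 2 rises. For both lists these counts stand beside 50.6% of all genes tested without overlap, counting both directions. In the acinar list of 6 tested genes, CEL, a lipase, fell by 1.77 and was the single call in the reduced fit too. The call of CEL was lost without ISL1-/- replicate 2 or 3 and when either WT library was left out.

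The genotype difference was then set beside the same difference with the BFP vector, which uses separate libraries of the same genotypes. These need not be independent cultures, so shared calls and signs are not independent replication. With BFP, 1448 of 25884 genes (5.59%) were called, 433 higher (1.67%) and 1015 lower (3.92%). The reduced fit called 6417 (23.5%). In all, 588 genes were called with both vectors, and all 588 had the same direction, 125 higher and 463 lower. They are 61.1% of the calls with the ISL1 vector and 40.6% of those with BFP. Of the 962 genes, 943 (98.0%) had the same sign with BFP, beside 75.9% of all genes tested. The correlation of the log2 fold changes across genes was 0.67, where genes are not independent replicates.

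The size of the differences varied by gene. Over the calls with the ISL1 vector, the median absolute log2 fold change was 1.77 with that vector and 1.53 with BFP. Over the calls with BFP it was 1.20 with the ISL1 vector and 1.81 with BFP, so each set was larger in the comparison that chose it. Of the 588 genes called with both, 342 (58.2%) had the smaller difference with the ISL1 vector, and the lower ones had medians of -1.78 with ISL1 and -2.02 with BFP.

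**Figure D5:**
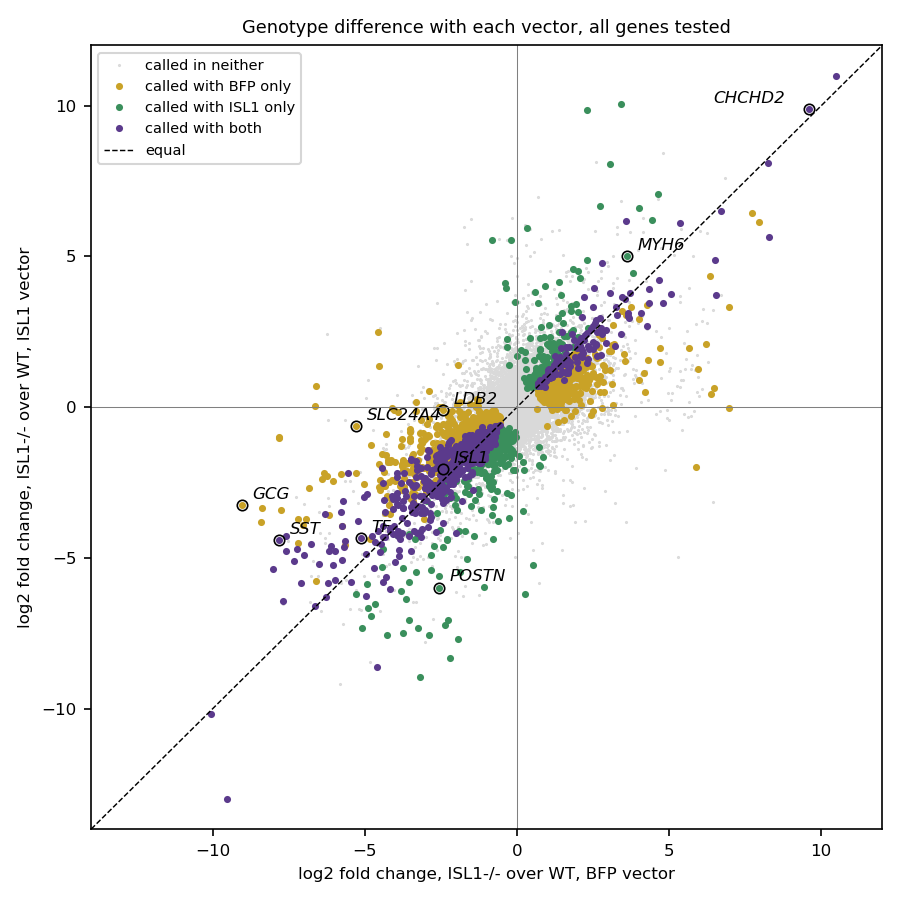
Log2 fold change of ISL1-/- over WT with the ISL1 vector (vertical axis) against that with the BFP vector (horizontal axis), 1 point per gene tested, coloured by where it was called; the dashed line marks equal values and black rings mark the genes named. SLC24A4 lies at -5.29 on the horizontal and -0.63 on the vertical axis, GCG and SST lie above the dashed line, and POSTN lies below it.

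The genotype difference differed between the vectors for 1 gene of 25884 (0.00386%) by the test of the interaction, and 769 genes had an unadjusted p under 0.05. DESeq2 called 26 genes (0.1%), the reduced fit 84 (0.308%) and the fit of the 10 libraries of the 4 groups alone 108 (0.443%). The gene called by the edgeR fit of all 21 libraries was SLC24A4, which encodes a potassium-dependent sodium-calcium exchanger. It had 6.97, 6.57 and 7.53 CPM in ISL1-/- with ISL1 and 12.8 and 8.99 CPM in WT with ISL1. With BFP it had 0.336, 0.329 and 0.233 CPM in ISL1-/- and 11.5 and 12.1 CPM in WT. The genotype difference was thus -0.63 ± 0.38 with ISL1 and -5.29 with BFP, and the difference of the differences was 4.66 (adjusted p = 0.0085).

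GCG and SST gave larger genotype differences with BFP than with ISL1, without passing that test in the fit of all 21 libraries. GCG in ISL1-/- was 90.9, 74.2 and 85.3 CPM with BFP, and its genotype difference was -9.03 with BFP and -3.26 with ISL1 (difference 5.77 ± 1.39, adjusted p = 0.582). The difference of GCG passed in the reduced fit (5.74, adjusted p = 0.00103) and with the 10 libraries of the 4 groups alone (5.77, adjusted p = 3.32e-04). SST in ISL1-/- was 0.390, 0.572 and 0.560 CPM with BFP, and its differences were -7.82 and -4.42 (difference 3.40 ± 1.24, adjusted p = 1.00, and 0.0949 in the reduced fit and 0.0283 with the 10 libraries). INS differed by -1.60 with BFP and by -1.77 with ISL1, and TTR by -3.09 and -2.94. LDB2, a LIM adaptor, was called with BFP (-2.43, adjusted p = 6.41e-04), while with ISL1 its value was -0.10 (difference 2.33 ± 0.51, adjusted p = 0.582, and 0.0372 in the reduced fit, 0.0514 with the 10 libraries and 0.0172 with DESeq2). POSTN had -2.57 with BFP and -5.99 with ISL1, a difference not called in any of these fits.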

How the data were processed

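Per the labels' protocols, RNA of the sorted cells was amplified with SMART-Seq v4, made into libraries with KAPA EvoPrep and read on a NovaSeq X. The deposited table gives raw counts for each gene in all 21 libraries beside its exon coordinates and length, per the file headers. The submitters' processing notes name STAR 2.7.11b, featureCounts 2.1.1 and GRCh38. The annotation release, the strand setting and the handling of multimapping reads are not given in the sources used here, so reads of a gene and an antisense or overlapping partner, or of near-identical copies, may not be separated. Of 62700 genes, 62699 were used. ANK2, whose entry runs over several lines, was left out. Symbols came from a separate name table. Libraries are numbered as in the sample descriptions.

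The quasi-likelihood F test (edgeR 4.0.16, R 4.3.3) was applied to each gene in a single model of all 21 libraries with a coefficient per group, TMM scaling and filterByExpr (at least 10 counts, and 15 in total), after which 25884 genes remained. The 3 comparisons were ISL1-/- against WT with each vector and the difference between them. Benjamini-Hochberg adjustment ran over all genes of a comparison, and a call needs an adjusted p under 0.05. CPM values are counts over the TMM library size, and log2 fold changes use a prior count of 0.125 and have an SE taken from the F statistic. A floor of 3 counts stands for a count of 0, which covers counting error only. The steps were tested on simulated data.

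The text names ISL1, PAX6, PDX1 and 5 islet hormones, the 12 largest rises and 12 largest falls (called, at least 10 CPM on average in the higher group, libraries without overlap), the genes that differ between vectors, and genes of 26 lists. Results of some genes that the rule names are not reported here. The genes, lists and rule were chosen with earlier results of these data known. Alternatives were other scalings, filters, DESeq2 1.42.0, limma 3.58.1 (voom with quality weights), other sets of libraries and replicate blocks. Values for 6 genes and for the lists in some of these fits were looked up after the main results were seen.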

Additional observations from a re-analysis of the deposited data

Results flagged for a closer look

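SLC24A4 was singled out because its genotype difference depended on the vector, by 4.66 on the log2 scale (edgeR interaction, adjusted p = 0.0085). The ISL1-/- libraries held 6.57 to 7.53 CPM with the ISL1 vector and 0.233 to 0.336 CPM with BFP, without overlap, while the 4 WT libraries held 8.99 to 12.8 CPM. The value stood between 4.42 and 4.91 when 1 of the 10 libraries was left out. The call was lost without ISL1-/- with BFP replicate 3, WT with BFP replicate 3 or either library of WT with ISL1, where the adjusted p reached 0.369, and was kept in the other 6 of these fits.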

How the results depend on the processing

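None of the 70 gene results recomputed under the alternatives reversed. These are of the called named genes, the hormones, PAX6, PDX1 and SLC24A4. Of 63 called named genes, 15 were called in every fit without 1 library of the comparison, 21 in none, and 52 in every other setting that gave an adjusted p, SST among them, for which DESeq2 gave none. The count of 962 genes (27.5% higher) was 1936 with DESeq2, 6338 with voom and quality weights (43.4% higher), 5649 with the 5 libraries alone (40.9%) and 5308 without both libraries of high mitochondrial share (42.3%). Without 1 library it ranged from 242 (WT with ISL1 replicate 1, 12% higher) to 2069 (PDX1-/- with ISL1 replicate 4). It was 248 without WT with ISL1 replicate 2, 463, 431 and 417 when replicate 1, 2 or 3 of ISL1-/- with ISL1 was dropped, and 1749 when PAX6-/- with ISL1 replicate 3 was. The BFP count of 1448 was 2431, 6878, 5846 and 6417 in the same 4 settings and 459 to 2745 without 1 library. The single interaction became 2 with no filter, 26, 150, 108 and 84 in the same 4 settings, and 0 to 2 without 1 library. The share of same signs (98%) was 99% with a filter at 50 counts, 94.7% with voom, 95.5% with the compared groups alone, 95.5% without both libraries, and 95% to 99.2% without 1 library. The share of promoters with TAAT was 24.4% in windows of 100 bases. The causes of these shifts were not tested.

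Same-numbered libraries of the compared groups deviated with correlations of -0.0615 and 0.0276 over 2 pairs. The deviations of the 2 WT libraries mirror each other, so these values cannot tell whether same-numbered libraries share an effect. The labels do not pair libraries by number. A replicate block by the number in the description gave 2423 calls with the ISL1 vector (37.8% higher), 3150 with BFP and 96% of same signs, and a block by the number in the title gave 977 calls. GCG was called under both (adjusted p = 0.002 and 0.015), and INS under the first (0.0229). Depth limits genes at a few counts, such as NKX2-5 in WT. Leaving out a WT library leaves 1, which is assumed to vary like the other groups.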

Other observations

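Genotype differences were also summarized by chromosome. Over genes of at least 10 CPM, the chromosome medians of the log2 fold change with the ISL1 vector lay between -0.20 (chromosome 18) and 0.19 (chromosome 22). The median over all chromosomes was -0.02. With BFP these 2 chromosomes had medians of -0.14 and 0.18. Whether a chromosome was shifted was not tested.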
